A study of Mus musculus with 6 samples.

Results

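The endothelin system was followed through 6 genes in single nuclei of the rd10 mouse retina. They were the 3 ligand genes Edn1, Edn2 and Edn3, the receptor genes Ednra and Ednrb, and Ece1, which encodes the enzyme that releases the active peptides from their precursors. The genes were chosen by symbol, and all 6 were found among the 32285 genes counted. The mice were of the strain B6.CXB1-Pde6b-rd10/J, in which a mutation in the rod phosphodiesterase gene Pde6b leads to the loss of rods and then cones. Eyes were injected intravitreally on postnatal day 18 and retinas were collected on day 20. The IL-27 treated group received 20 ng of the cytokine IL-27 (3 libraries, replicates 4, 5 and 10), and the saline control group received saline (3 libraries, replicates 1, 2 and 6). The degeneration, the injection and the age were common to both groups, and neither wild-type nor uninjected retinas were analysed here. The labels do not say how many animals or retinas went into a library, so p-values measure only the spread between these libraries, which may be technical.

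Endothelins are short secreted peptides that are cut from larger precursors, and Ece1 makes the last cut. Ednra is known for contracting vascular smooth muscle and pericytes, through the G protein Gnaq, phospholipase C beta and the release of calcium, whereas Ednrb is known on glia and on endothelium, where it clears the peptide and promotes dilation. In the mouse retina, Edn2 is known as a gene that injured photoreceptors switch on, and Ednrb as a receptor of glia. The question put to these data was which nuclei held the ligands, which held the receptors, and whether IL-27 treated and saline control retinas differed in any of them.

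The ligand genes code for closely related peptides. The bases that encode the mature peptide lie in exon 2 of each gene, at chr13:42303649-42303711 in Edn1, chr4:120161951-120162013 in Edn2 and chr2:174761749-174761811 in Edn3, all on the plus strand of GRCm38 (GENCODE M21). They are shown because they carry what the 3 ligands share and where they differ; capitals mark the positions at which the 3 genes do not all have the same base.
Edn1: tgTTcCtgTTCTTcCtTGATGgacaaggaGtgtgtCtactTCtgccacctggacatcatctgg
Edn2: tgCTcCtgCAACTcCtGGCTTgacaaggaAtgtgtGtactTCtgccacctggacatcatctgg
Edn3: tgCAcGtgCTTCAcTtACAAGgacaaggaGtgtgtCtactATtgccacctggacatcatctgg
In these 63-base windows 18 positions differed among the 3 genes, and most of them lay in the first part of the window. Edn1 and Edn2 had 53 of 63 bases in common, Edn1 and Edn3 had 50, and Edn2 and Edn3 had 48. The files name no genome build and give no coordinates, and 32158 of their 32285 gene identifiers (99.6%) were in GENCODE M21, which was used for positions. In that annotation Edn1 lies on chromosome 13 (42301476 to 42307990, plus strand), Edn2 on chromosome 4 (120161206 to 120167360, plus), Edn3 on chromosome 2 (174760619 to 174784042, plus), Ednra on chromosome 8 (77663031 to 77724464, minus), Ednrb on chromosome 14 (103814625 to 103844402, minus) and Ece1 on chromosome 4 (137862237 to 137965229, plus).

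The 6 libraries held 8968 to 9965 barcodes and 36678332 to 48260748 UMIs each, and 52193 nuclei were retained after filters and doublet removal (8238 to 9162 per library). Between any pair of libraries, 18 to 30 barcode sequences were shared. Nuclei were sorted into 34 clusters, and a name such as rod or pericyte here means that a cluster was like that type by a fixed list of marker genes. In every named type, at least 6 of its markers were detected in 10% or more of the nuclei. The summed nuclei numbered 14344 rods, 3129 cones, 9699 bipolar cells (BC), 9417 amacrine cells (AC), 478 horizontal cells (HC), 2090 retinal ganglion cells (RGC) and 4514 Muller glia. The smaller types were 1448 microglia, 276 astrocytes, 107 pericytes and 220 endothelial nuclei. No cluster met the markers of retinal pigment epithelium, and 3 clusters with 2550 nuclei stayed unnamed. A cluster led by Slc6a13 and Fbln1 (Fbln1-high) was kept apart from the Muller glia and held 232, 221 and 108 retained nuclei after saline but 12, 6 and 104 after IL-27. It was picked as the cluster highest in Fbln1, Frmpd4, Reln and Csmd3, genes that the paper reports for a saline-specific subpopulation of Muller glia. Levels are given as CPM, the UMI count of a gene scaled to a common total over the summed nuclei of a type in a library, as mean ± SD of 6 libraries unless stated otherwise. They are compared between nucleus types for the same gene and not between genes.

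Edn2 was the photoreceptor ligand of this retina. Its highest level among the 11 types was in rods, at 77.5 ± 11.03 CPM, and rods held 79.6% of its 2151 UMIs. The rod level was 75.7, 87.8 and 66.9 CPM in the saline libraries and 78.7, 91.7 and 64.0 CPM in the IL-27 libraries, so that each group had a low, a middle and a high library and the groups overlapped. Cones came next with 8.93 ± 3.90 CPM, and the rod level was 8.67 times as high, with no overlap between the libraries of the 2 types. The cone values were 5.88, 5.16 and 13.2 CPM for saline and 5.53, 10.3 and 13.5 CPM for IL-27. Below cones the order was not resolved: astrocytes (5.20 ± 7.30 CPM, 5 UMIs in all) were under cones in only 4 of 6 libraries, and Muller glia were at 0.981 ± 0.367 CPM.

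At least 1 Edn2 UMI was found in 1259 of 14344 rods, or 8.78% (95% exact binomial interval 8.32 to 9.25%), at a median of 1250 UMIs per nucleus. In RGC, which are not known as a source of Edn2, the share was 0.383% at a median of 9926 UMIs. After each nucleus was thinned to 1000 UMIs the shares were 7.15% in rods, 0.639% in cones and 0% in RGC, where 0 of 2090 nuclei allows a share of up to 0.144%. Such intervals and limits cover counting error only. Of the rods with Edn2, 1098 held 1 UMI and 161 held more, up to 4. The Edn2 level in cones was 11.5% of that in rods, within the range of 7.81 to 61.7% that the 8 rod marker genes gave for cones (median 13.7%). In BC and Muller glia it was 2.76% and 1.27% of the rod level, where the rod markers ranged from 2.89 to 8.74% and from 1.07 to 7.70%. In these 3 types Edn2 thus lay within or just below the range of the rod transcripts, and the part of RNA released from rods in it was not tested.

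The rods with an Edn2 UMI were set beside the other rods of the same library, as a description that rests on single UMIs, with ratios taken on log2(CPM + 10). Among 5697 genes with at least 60 counts in the rods with Edn2, 196 (3.44%) were higher in all 6 libraries and 199 (3.49%) were lower in all 6. The limit counted only the rods with Edn2, so a gene near it could enter through being high there. Both shares, and the choice of genes named next, depend on that limit and are no neutral background. Zbtb7c, a zinc finger gene, was at 315 ± 88.0 CPM in rods with Edn2 and 181 ± 44.8 CPM in other rods, a mean log2 ratio of 0.76 ± 0.11. Myo10, an unconventional myosin, had a mean log2 ratio of 0.63 ± 0.17, and Agtpbp1, a carboxypeptidase that trims tubulin and is needed for photoreceptor survival, 0.66 ± 0.17. Among those lower in all 6 were Tnfaip3, an inhibitor of NF-kB signalling (-0.56 ± 0.27), and Acadm, an enzyme of fatty acid oxidation (-0.57 ± 0.25). Of the 8 other genes of the retinal damage list, 3 were higher beside Edn2 in 6 of 6 libraries: Stat3 (log2 ratio 0.30 ± 0.17), its feedback inhibitor Socs3 (0.37 ± 0.25) and the transcription factor Cebpd (0.32 ± 0.22). The list was read without the limit of 60 counts. Socs3 (36 UMIs in the rods with Edn2), Gfap (51), Serpina3n (44), Osmr (8) and Lif were under it, so the shares of 3.44% and 3.49% do not apply to them. Fgf2, a growth factor that protects photoreceptors, had a log2 ratio of 0.31 ± 0.35 and was higher in 4 of 6 libraries, while Gfap was at 0.14 ± 0.39 and Serpina3n at -0.29 ± 0.45. The cytokine receptor gene Osmr, at -0.29 ± 0.43, was higher in 1 of 6, and Lif had 0 UMIs in rods with Edn2. Rods with Edn2 were also deeper in each library, with medians of 1319 to 1407 UMIs against 1165 to 1287 in the others, and the part of depth in these ratios was not tested.

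The genes whose mean level over the 11 types was most like that of Edn2, among 15220 genes compared on log2(CPM + 1), were Fgf2os (Pearson r = 0.96), Gucd1 (0.96) and Mlf2 (0.95). Fgf2os, a transcript antisense to Fgf2 whose reads may not be separable from it, was at 148 ± 9.92 CPM in rods and 19.8 ± 5.73 CPM in cones. These r values describe 11 types that share the same 6 libraries.

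Edn1, the ligand of the vessel wall, was in endothelial nuclei and in a set of amacrine nuclei. The endothelial level was 215 ± 77.7 CPM, with 161, 189 and 215 CPM in the saline libraries and 126, 250 and 347 CPM in the IL-27 libraries. The IL-27 libraries thus gave both the lowest and the highest value. A UMI of Edn1 was found in 51 of 220 endothelial nuclei (23.2%, 17.8 to 29.3%; 14.8% after thinning). The next type, AC, had a level of 7.70 ± 1.67 CPM, and the endothelial level was 27.9 times as high with no overlap of the libraries. Because AC were so many, they nevertheless held 66.9% of all 729 Edn1 UMIs and endothelial nuclei 18.4%. No Edn1 UMI was found in 478 HC, 276 astrocytes or 107 pericytes, which allows shares of up to 0.628%, 1.09% and 2.80%.

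The amacrine Edn1 was not spread evenly. A single cluster of 1604 amacrine nuclei, 16.1% of the class, held 360 UMIs, or 73.8% of the Edn1 UMIs of AC. Its level was 34.7 ± 8.26 CPM, with 29.6, 42.5 and 30.01 CPM in the saline libraries and 27.6, 30.5 and 47.5 CPM in the IL-27 libraries. All 6 of these values lay above those of the next amacrine cluster, which was led by Car3 and Slc17a8 and had 9.90 ± 1.39 CPM. The Edn1 cluster was led by Dytn, Slc26a7, Fgd6 and Tnc, and 17.5% of its nuclei had an Edn1 UMI (3.06% after thinning). The level in AC as a class was 3.59% of the endothelial level, above 8 of the 10 endothelial markers, whose median there was 0.195%. The genes most like Edn1 over the 11 types were Rasip1 (r = 0.97), Dll4 (0.97) and Myct1 (0.96), each highest in endothelial nuclei.

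Edn3 was close to the limit of detection, with 19 UMIs in all retained nuclei. The Fbln1-high cluster held 13 of them, and endothelial nuclei and BC held 2 each. Rods and Muller glia held 1 each. Among the summed Fbln1-high nuclei, saline libraries had 4, 4 and 3 Edn3 UMIs from 211, 202 and 99 nuclei. The IL-27 libraries had 0, 0 and 1 from 12, 3 and 93 nuclei. The share of nuclei with a UMI was 1.77% (0.889 to 3.15%), against 0 of 4514 in the summed Muller glia, which allows up to 0.0665%. In all retained nuclei Edn3 was at 0.127 ± 0.0234 CPM after saline and 0.0404 ± 0.0476 CPM after IL-27 (SD, 3 libraries per group), without overlap, an order that 3.59% of all genes tested in that sum had. Edn3 was below the count filter for a test and is not among those genes, so the share does not apply to it. Such a sum cannot tell fewer nuclei of a type from less RNA per nucleus.

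Ece1, the converting enzyme, was broad, with 10 of 11 types holding at least 10 UMIs. It was highest in the vessel wall, at 203 ± 37.9 CPM in endothelial nuclei and 200 ± 127 CPM in pericytes, and these types were not separated (endothelial higher in 4 of 6 libraries). The endothelial values were 194, 138 and 205 CPM for saline and 218, 207 and 255 CPM for IL-27. A UMI was found in 83 of 220 endothelial nuclei (37.7%; 17.2% after thinning). Cones stood out among neurons with 66.7 ± 3.49 CPM, above HC (48.3 ± 6.35 CPM) in 6 of 6 libraries and without overlap. HC and AC (47.6 ± 5.75 CPM) were not separated, and Muller glia followed at 41.5 ± 4.45 CPM. The class that held the most Edn2, rods, was low in Ece1 at 10.9 ± 2.06 CPM, and its cone to rod order was the reverse of that of Edn2. Rods, BC (10.2 ± 1.26 CPM) and astrocytes (3.24 ± 3.97 CPM, 4 UMIs) were the lowest 3 types. Among amacrine clusters Ece1 was highest in the cluster led by Tshr and Olfm3, with 109 ± 26.4 CPM, compared with 59.0 ± 7.86 CPM in the Edn1 cluster. Among the genes most like Ece1 over the types were Alkbh8 (r = 0.81) and Apbb2 (0.79), lower values than those named for the other members.

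**Figure D1:**
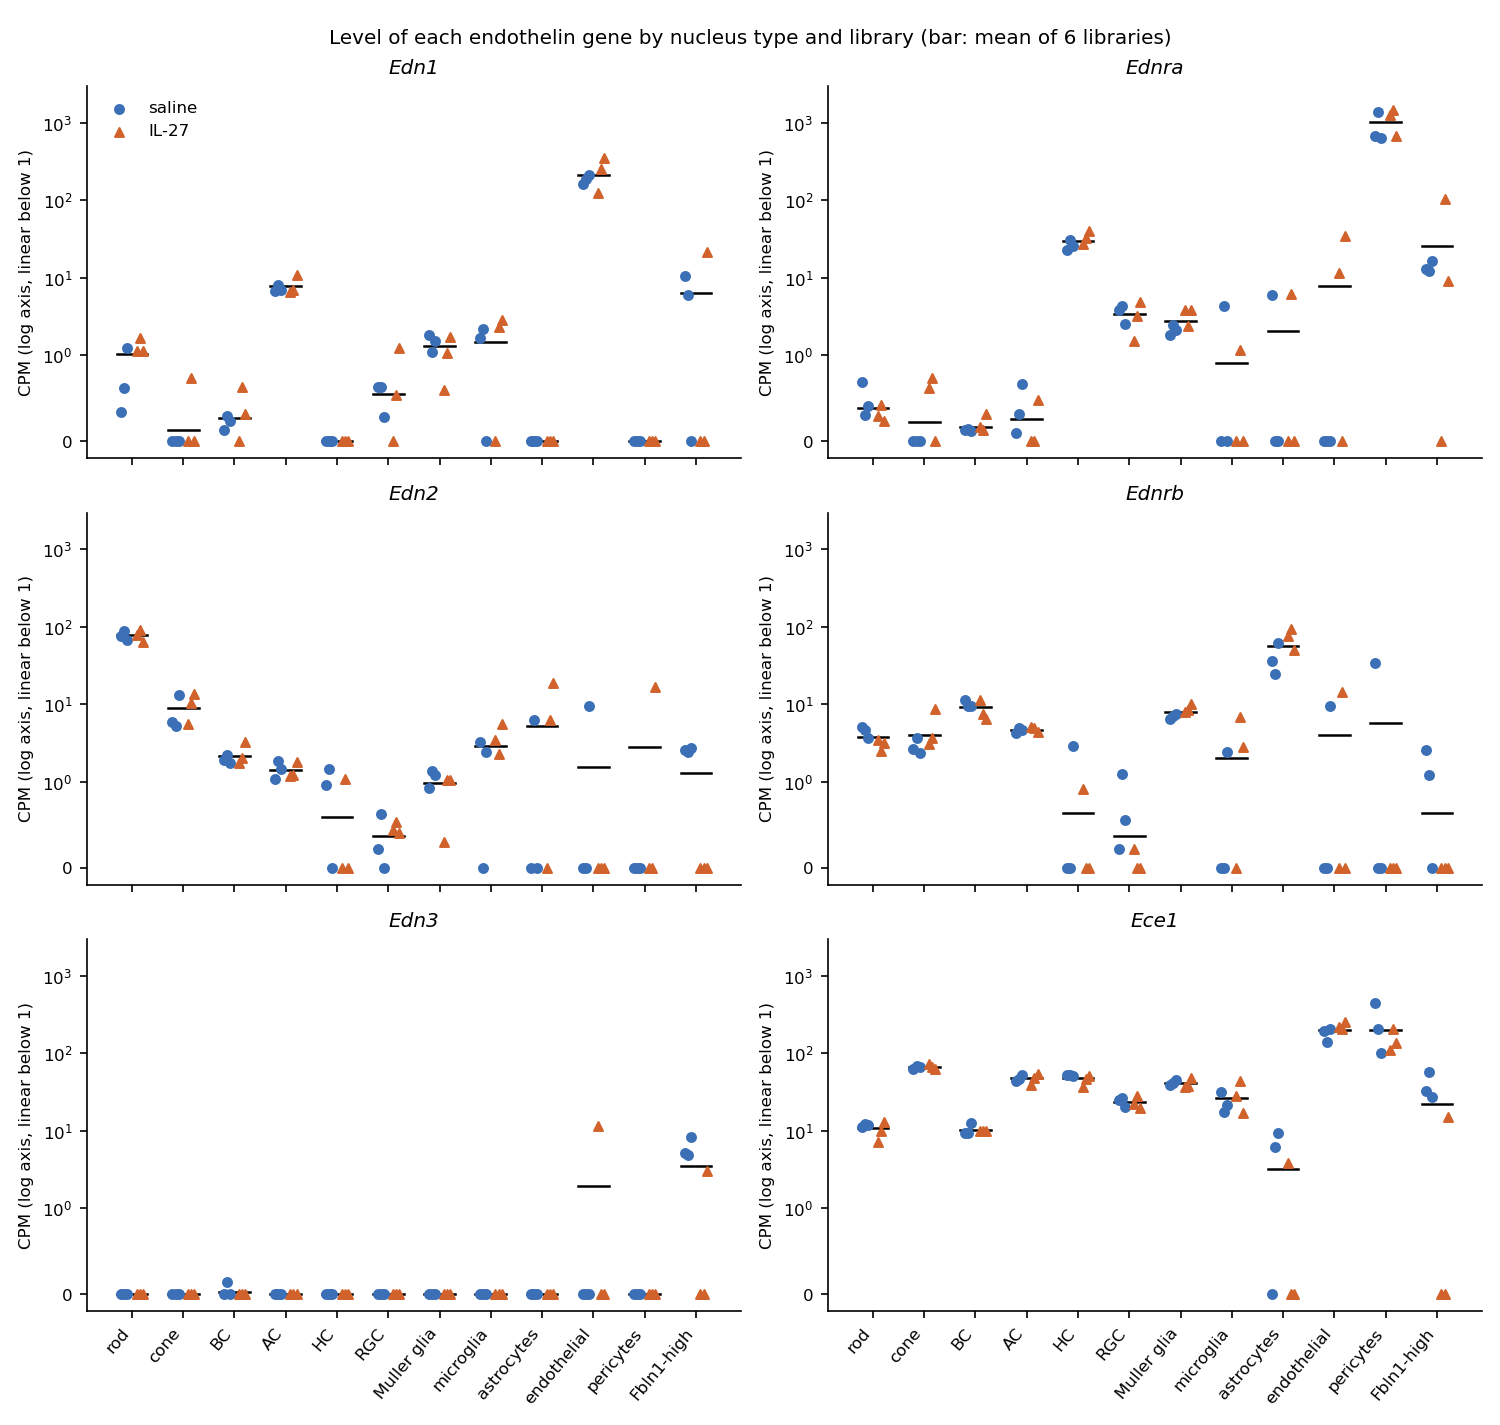
Level of each endothelin gene in CPM (log axis, linear below 1) in 11 nucleus types and the Fbln1-high cluster; circles are saline libraries, triangles IL-27 libraries and bars the mean of 6 libraries. Edn2 peaked in rods (77.5 CPM), Edn1 in endothelial nuclei (215 CPM), Ednra in pericytes (1018 CPM) and Ednrb in astrocytes (57.1 CPM), while Ece1 was in nearly all types and Edn3 close to 0.

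Ednra marked pericytes. Its level there was 1018 ± 397 CPM, and pericytes, 0.224% of retained nuclei, held 40.7% of the 764 Ednra UMIs. The values were 681, 1367 and 631 CPM in the saline libraries and 1269, 1488 and 674 CPM in the IL-27 libraries, from 12 to 25 nuclei each, and the groups overlapped across nearly the whole range. A UMI was found in 89 of 107 pericytes (83.2%, 74.7 to 89.7%; 59.0% after thinning), against 0.0722% of BC. The median depth was 2412 UMIs in pericytes and 4267 in BC.

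Endothelial nuclei, the other cells of the vessel wall, held few Ednra UMIs: 4 in 220 summed nuclei, or 7.69 ± 14.01 CPM. When all 243 endothelial nuclei were summed, IL-27 replicate 4 had 30 Ednra UMIs, all in 4 nuclei and 20 of them in a single nucleus. The summed level of the 10 pericyte markers in that library was 2181 CPM with those 4 nuclei and 220 CPM without them. The Ednra reads of the endothelial cluster thus came with pericyte markers, and whether these nuclei were doublets was not tested.

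HC were the neuronal site of Ednra, with 30 ± 6.02 CPM and 19.4% of its UMIs. The level was 23.1, 30.9 and 25.9 CPM in the saline libraries and 27.4, 32.8 and 40 CPM in the IL-27 libraries. HC were above endothelial nuclei in 6 of 6 libraries although the ranges touched, and AC were at 0.257 ± 0.276 CPM. The share of HC with a UMI was 20.7% (17.2 to 24.6%) at a median of 10037 UMIs per nucleus, and 3.56% after thinning, against 0.159% of AC at 5827 UMIs. The level in HC was 2.95% of that in pericytes, above each of the 10 pericyte markers, which reached at most 2.54% there. The pericyte markers Kcnj8 and Myh11 were at 0 in HC. RGC (3.37 ± 1.23 CPM) and Muller glia (2.74 ± 0.873 CPM) were lower still and not separated from each other.

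The gene most like Ednra over the types was 4933431K23Rik (r = 0.99), followed by Tnks1bp1 (0.95) and Ccdc160 (0.93). 4933431K23Rik is a transcript on the opposite strand (chromosome 8, 77610860 to 77769682) that spans the whole Ednra gene. It was at 515 ± 242 CPM in pericytes and 19.2 ± 4.76 CPM in HC, so both genes of this locus had the same order of types at the top. Whether reads of the locus can be split between the strands depends on the counting, for which the strand setting is not given in the sources used here, and the Ednra levels are uncertain to that extent. The antisense neighbours of Edn1 (Gm47118) and Ece1 (Gm13012) held few UMIs, at most 8 and 18 in any type.

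**Figure D2:**
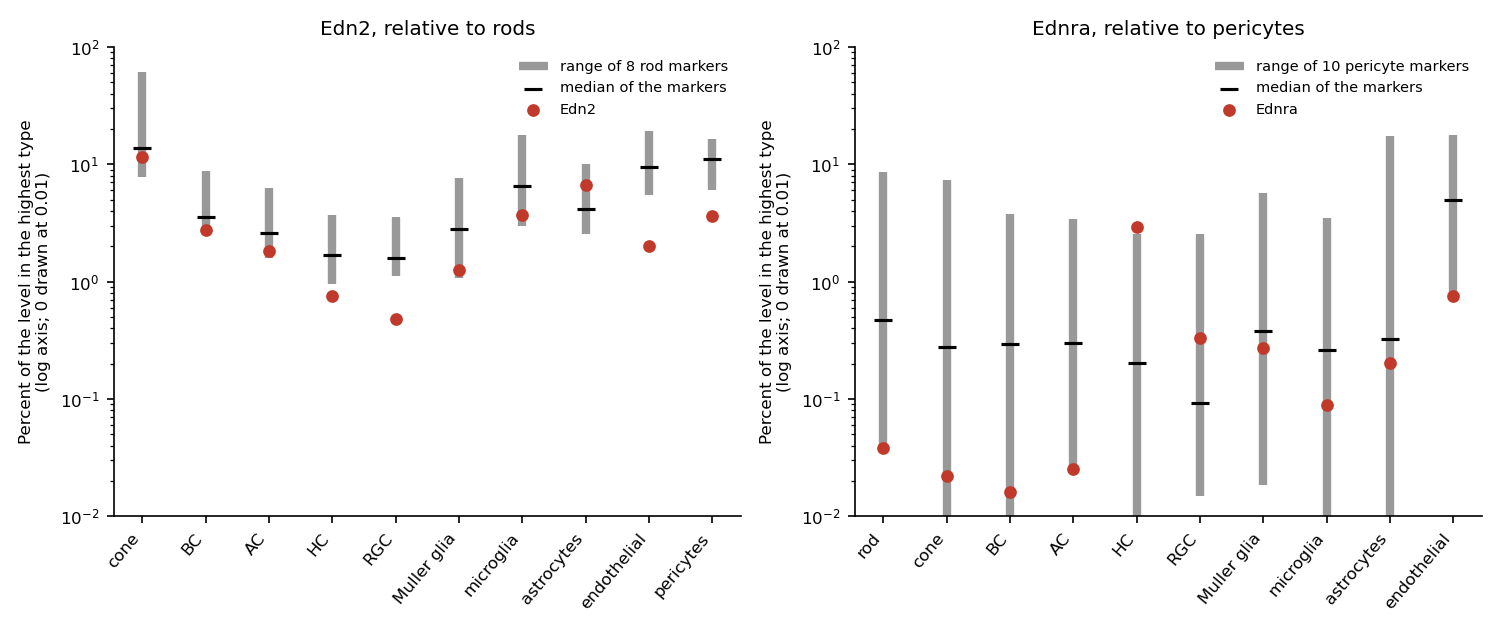
Left, the Edn2 level of each type as a percent of the rod level, beside the range (grey bar) and median (black line) of 8 rod markers; right, the Ednra level as a percent of the pericyte level beside 10 pericyte markers; log axes, values of 0 drawn at 0.01. Edn2 in cones (11.5%) lay within the range of the rod markers, and Ednra in HC (2.95%) lay above all pericyte markers.

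Ednrb had its highest level in astrocytes, the glia of the nerve fiber layer, at 57.1 ± 25.5 CPM. The values were 36.3, 24.8 and 61.3 CPM in the saline libraries and 76.3, 93.6 and 50 CPM in the IL-27 libraries. The lowest IL-27 library fell below the highest saline library, so the groups overlapped. A UMI was found in 45 of 276 astrocytes (16.3%, 12.1 to 21.2%; 4.71% after thinning) at a median of 3793 UMIs, against 0.335% of RGC. The astrocyte level was 6.17 times that of the next type, without overlap of the libraries.

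Muller glia, the radial glia of the retina, had an Ednrb level of 7.94 ± 1.26 CPM, not separated from that of BC (9.25 ± 1.93 CPM), which was higher in 4 of 6 libraries. The lowest Muller library (6.45 CPM) was above the highest of AC (5.07 CPM), rods (5.14 CPM), HC (2.88 CPM) and RGC (1.25 CPM). It was below the highest of cones (8.71 CPM), microglia (6.90 CPM), endothelial nuclei (14.3 CPM) and pericytes (34.1 CPM), so Muller glia were not separated from these types. AC were at 4.70 ± 0.358 CPM, cones at 4.02 ± 2.36 CPM and rods at 3.75 ± 0.963 CPM. Muller glia contributed 14.6% of the 1181 Ednrb UMIs and astrocytes 5.76%, while BC contributed 40.2% and AC 26.2%. The share of Muller glia with a UMI was 3.30% (2.80 to 3.86%) at a median of 4468 UMIs and 0.775% after thinning, against 0.0478% of thinned RGC.

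Within the Muller glia, Ednrb was 11.3 CPM in a subcluster of 1392 nuclei led by Efnb2, Tbx5 and Nr2f2. It was 7.26 CPM in a subcluster of 2043 nuclei led by Srgap1, Neat1 and Gfap, and 4.88 CPM in one of 1049 nuclei led by Calca and Id1 (all libraries pooled). The first was above the second in all 6 libraries, at 9.58 to 14.98 CPM against 4.14 to 10.99 CPM. The libraries differed in how their Muller nuclei fell into these subclusters. The subcluster led by Calca and Id1 had 273, 135 and 356 nuclei in saline replicates 1, 2 and 6 but 246, 34 and 5 in IL-27 replicates 4, 5 and 10. The subcluster led by Efnb2 had 281, 285 and 195 after saline and 303, 268 and 60 after IL-27. The Fbln1-high nuclei held 3 Ednrb UMIs in 620 nuclei.

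The neuronal Ednrb sat in a few clusters. A bipolar cluster of 999 nuclei, led by Gabrr3, Malrd1, Adarb2 and Cntn5, was at 58.7 ± 15.2 CPM and held 53.5% of the Ednrb UMIs of BC. Its values were 56.1, 55.5 and 75.02 CPM in the saline libraries and 78.8, 43.01 and 43.7 CPM in the IL-27 libraries, in the range of the astrocytes. The amacrine cluster that was highest in Edn1 was also the highest amacrine cluster in Ednrb, at 24.4 ± 2.52 CPM, and it held 82.2% of the Ednrb UMIs of AC. Its 6 libraries were close, at 20.1, 26.03 and 27.01 CPM for saline and 23.8, 26.02 and 23.5 CPM for IL-27. Of its 1604 nuclei, 281 had an Edn1 UMI, 186 an Ednrb UMI and 44 both. Ednrb was found in 15.7% of its nuclei with Edn1 and 10.7% of the others, which had medians of 6859 and 6017 UMIs. At this depth ligand and receptor were thus in the same cluster and in part in the same nuclei. The genes most like Ednrb over the types were Lin52 (r = 0.90), the protease inhibitor A2m (0.89) and Agbl5 (0.88), each highest in astrocytes.

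**Figure D3:**
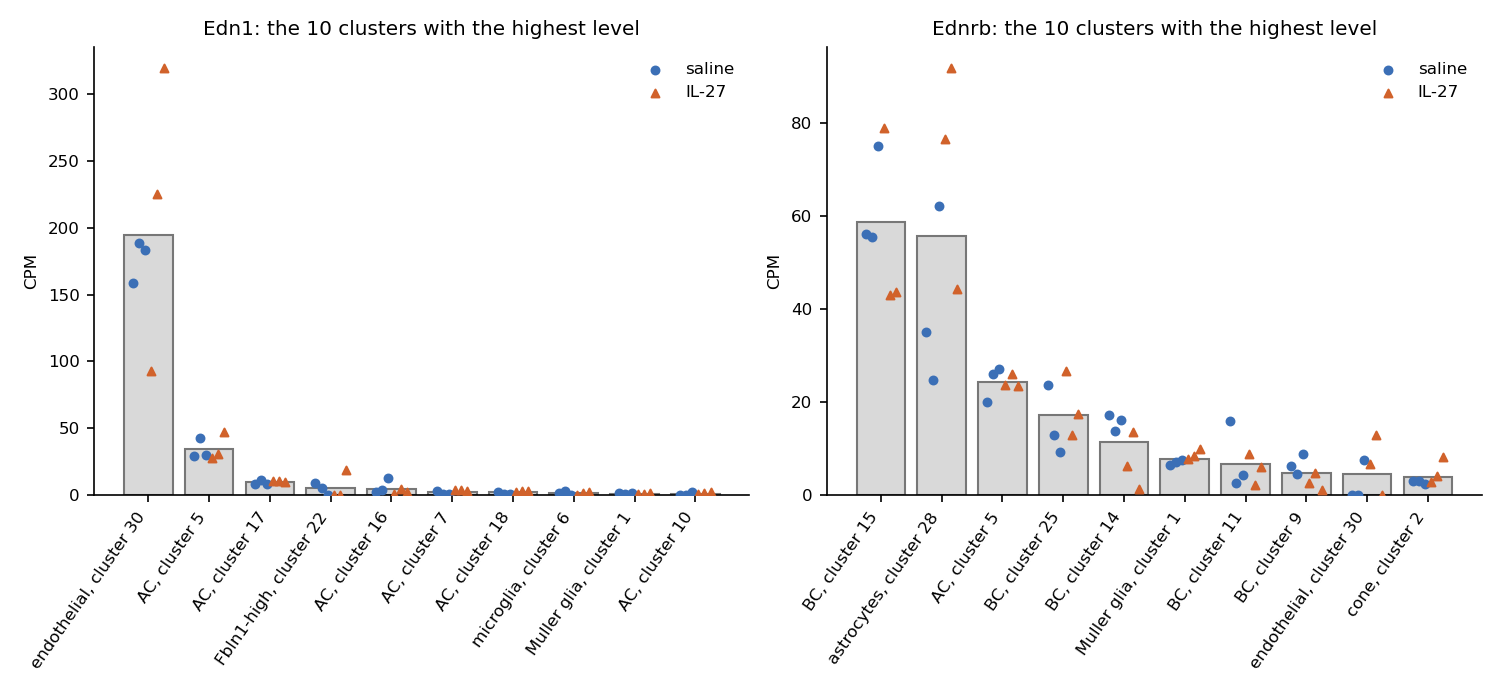
Edn1 (left) and Ednrb (right) in CPM in the 10 clusters with the highest level of each gene; bars are means of 6 libraries, circles saline libraries and triangles IL-27 libraries. Amacrine cluster 5 is high in both genes (34.7 and 24.4 CPM), and bipolar cluster 15 (58.7 CPM) is at the level of the astrocytes in Ednrb.

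Checked against these levels, the expected sites held in part. Photoreceptors, in particular rods, were the source of Edn2. The vascular receptor was in pericytes as Ednra, with few Ednra UMIs in endothelial nuclei. Endothelial Ednrb rested on 3 UMIs in 220 nuclei (3.94 ± 6.30 CPM, beside 3.75 ± 0.963 CPM in rods), too few to place its level. The glial receptor was Ednrb in astrocytes more than in Muller glia.

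IL-27 treated and saline control libraries were then compared, with counts summed per library and type. None of the endothelin genes was called. Of 66 pairs of a gene and a type, 23 had counts enough for a test and 43 did not, and Edn3 was tested in none. With edgeR, 0 of the 23 passed an adjusted p of 0.05, and 0 had an unadjusted p under 0.05. DESeq2 and edgeR without the filter gave a p for 54 pairs each, and again 0 were called and 0 had an unadjusted p under 0.05. The background was low: the share of all tested genes called was 0.00755% in rods, 0% in cones, 0% in BC, 0.0061% in AC, 0% in HC, 0% in RGC, 0.0369% in Muller glia, 0% in microglia, 0% in astrocytes, 0% in endothelial nuclei and 0.111% in pericytes. The estimated log2FC of the 23 pairs was positive in 15 and negative in 8, with a median of 0.03 and a range from -0.53 to 0.76, beside medians of -0.01 to 0.01 over all genes of a type.

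The widths of the intervals differ between members. For Edn2 in rods, the best counted ligand, the log2FC was 0.01 ± 0.14 (SE, adjusted p = 0.999), and the 95% interval of -0.29 to 0.31 leaves IL-27 levels between 0.817 and 1.24 times those of saline. The share of rods with an Edn2 UMI was 8.97 ± 1.46% after saline and 8.73 ± 1.16% after IL-27 (SD over 3 libraries). These shares differed by -0.233 percentage points (two-sided exact permutation test, p = 0.7, with 0.1 the smallest p possible). For Edn1 the log2FC was 0.36 ± 0.36 in endothelial nuclei (-0.43 to 1.15) and 0.18 ± 0.20 in AC (-0.26 to 0.62). In the amacrine cluster highest in Edn1, fitted alone after its level was seen, it was 0.06 ± 0.22.

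Among the receptors, Ednra had a log2FC of 0.35 ± 0.32 in pericytes (-0.31 to 1.01) and 0.30 ± 0.26 in HC (-0.24 to 0.84), and neither interval excludes 0. Ednrb had a log2FC of 0.76 ± 0.44 in astrocytes (-0.15 to 1.68, adjusted p = 0.981), the largest estimate among the 23, with an unadjusted p of 0.0977 from edgeR. In Muller glia it was 0.34 ± 0.23 (-0.16 to 0.83, adjusted p = 0.966), in BC -0.24 ± 0.21, in AC 0.09 ± 0.19 and in rods -0.53 ± 0.35. In the bipolar cluster highest in Ednrb the log2FC was -0.20 ± 0.23, and in the amacrine cluster it was 0.06 ± 0.20.

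In 3 of the 23 pairs the libraries of the groups did not overlap. Ednrb in Muller glia was 6.45, 7.03 and 7.57 CPM for saline and 8.02, 8.50 and 10.05 CPM for IL-27, an order that 4.87% of all genes tested in Muller glia shared. Within the subclusters the groups overlapped: in the one led by Efnb2, Ednrb was 12.9, 11.3 and 11.6 CPM for saline and 10.4, 9.58 and 14.98 CPM for IL-27, and in the one led by Srgap1 it was 4.50, 4.14 and 7.28 CPM for saline and 6.47, 8.12 and 10.99 CPM for IL-27. The part of the subcluster make-up in the order seen for Muller glia as a class was not tested. Ednrb in rods had the opposite order, with 5.14, 4.59 and 3.65 CPM for saline and 3.43, 2.49 and 3.20 CPM for IL-27, shared by 4.41% of genes. Ece1 in endothelial nuclei, with a log2FC of 0.32 ± 0.30, was higher in all IL-27 libraries, as were 4.13% of genes there. Taken over all genes tested in the 11 types, 3.96% had IL-27 above and 4.94% saline above, compared with 2 and 1 of the 23 pairs.

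Markers of other types were compared beside these values. The sum of the 8 astrocyte markers in Muller glia was 1714 to 1925 CPM in the saline libraries and 1748 to 1972 CPM in the IL-27 libraries, so the ranges overlapped. That list includes Aqp4 and Slc1a3, which are Muller markers too, and its highest gene there was at 3111% of its astrocyte level. The sum therefore cannot measure astrocyte RNA in Muller glia. In rods the astrocyte markers summed to 164 to 185 CPM for saline and 159 to 183 CPM for IL-27. The sum of the 10 Muller markers in rods was 1860 to 2007 CPM for saline and 1565 to 1968 CPM for IL-27. The 9 BC markers summed in rods to 1511 to 1715 CPM for saline and 1448 to 1640 CPM for IL-27. The 8 AC markers summed there to 355 to 489 CPM for saline and 317 to 428 CPM for IL-27. Both ranges overlapped. A pair of lists did not overlap in rods. The 4 genes by which the Fbln1-high cluster was picked summed to 93.9 to 107 CPM for saline and 60.4 to 86.3 CPM for IL-27. That was the same order as Ednrb. These 4 genes are not particular to that cluster, with sums of 1660 to 1866 CPM in BC and 1927 to 2025 CPM in RGC (saline libraries). The Fbln1-high nuclei themselves were at 0.634 ± 1.08 CPM of Ednrb. The 10 endothelial markers summed in rods to 109 to 112 CPM for saline and 114 to 128 CPM for IL-27. None of these markers was at 0, and their part in the Ednrb values of rods was not tested. In endothelial nuclei the sum of the 10 pericyte markers was 37.7 to 345 CPM for saline and 386 to 995 CPM for IL-27, without overlap and with none of the markers at 0. Ece1 is high in pericytes too, and the part of pericyte RNA in its endothelial values was not tested.

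In the sum of all retained nuclei, where the number of nuclei of a type and the level per nucleus cannot be told apart, 5 members were tested and 0 were called (0% of all genes). Ednra had a log2FC of 0.43 ± 0.23 (-0.08 to 0.95, unadjusted p = 0.0906 from edgeR), with 2.96 ± 0.904 CPM in saline and 3.99 ± 0.475 CPM in IL-27 libraries. Edn1 was at 0.33 ± 0.22, Edn2 at 0.23 ± 0.19, Ednrb at -0.06 ± 0.13 and Ece1 at -0.00 ± 0.08.

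**Figure D4:**
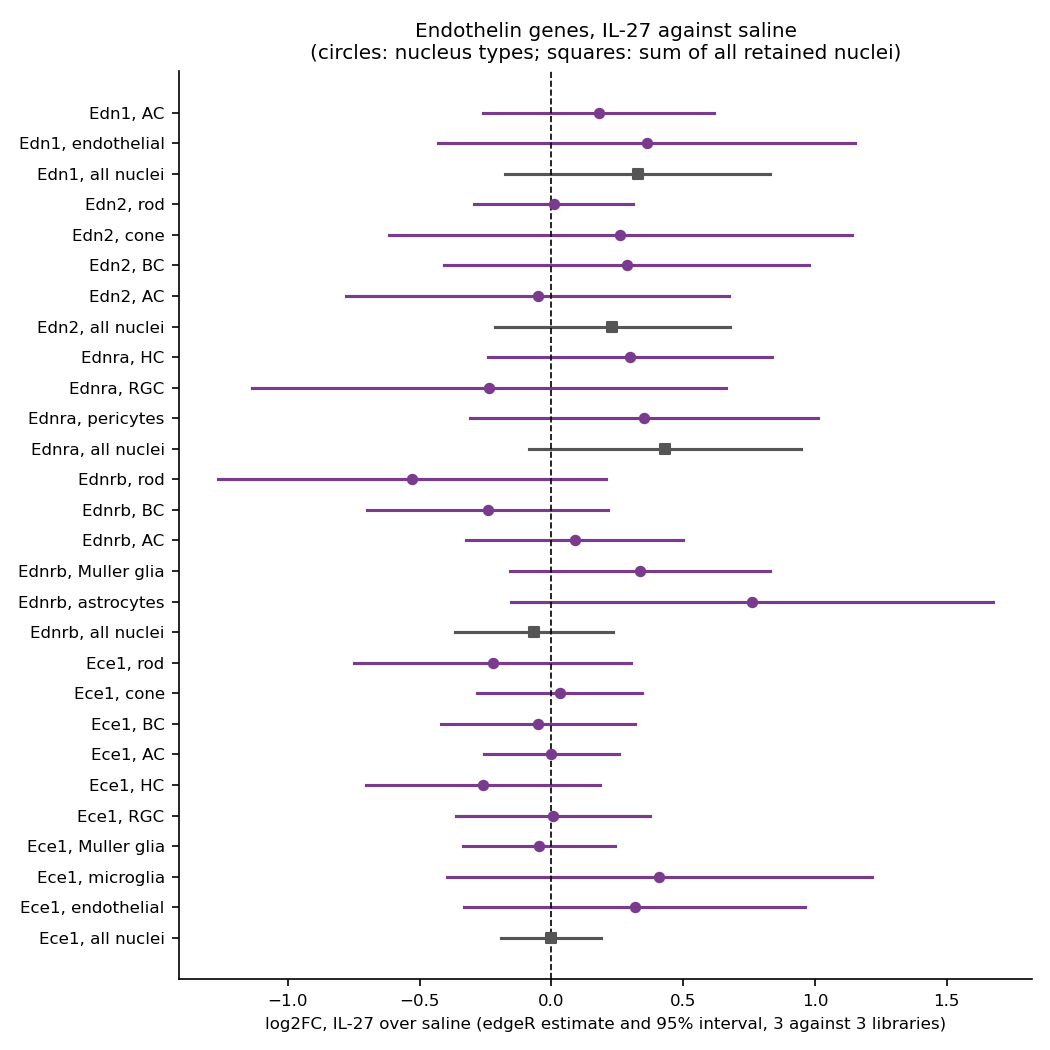
Log2FC of IL-27 over saline for each tested endothelin gene, as edgeR estimate and 95% interval from 3 against 3 libraries; circles are nucleus types and squares the sum of all retained nuclei. Every interval includes 0; the narrowest is that of Ece1 in all nuclei (-0.19 to 0.19) and the widest that of Ednrb in astrocytes (-0.15 to 1.68).

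The genes around the receptors were read in the same fit, from 6 lists: endothelin processing and breakdown, G protein and calcium coupling, receptor desensitization, the ERK cascade, the retinal damage response and contractile genes. Over the 11 types these gave 306 tests, of which 0 were called with edgeR and 11 had an unadjusted p under 0.05. Without the filter on low counts 1 was called, Socs3 in BC (adjusted p = 0.0494). The shares of all genes under that unadjusted limit, or called without the filter, are not given here. Neither count is therefore read as a result about the lists. The coupling genes were present in the cells that held Ednra, and in other types too. Pericytes had the calcium channels Itpr1 (748 ± 164 CPM) and Itpr2 (387 ± 71.0 CPM) of internal stores, the G protein Gnaq (363 ± 79.4 CPM) and Plcb4 (330 ± 103 CPM). HC had the phospholipases Plcb4 (941 ± 74.9 CPM) and Plcb1 (936 ± 53.2 CPM). Of these, Itpr1 and Itpr2 were highest in pericytes among the 11 types. Gnaq was highest in microglia (1016 ± 212 CPM), which held 3 Ednra UMIs. Plcb4 was highest in Muller glia (1274 ± 53.5 CPM) and Plcb1 in endothelial nuclei (1211 ± 307 CPM). Of the coupling list 6 genes were tested in pericytes and 11 in HC, with 0 called and medians of 0.00 and 0.07 (log2FC), beside medians of 0.01 and -0.01 over all genes. The contractile kinase Mylk was at 401 ± 74.5 CPM in pericytes and 18.7 ± 7.42 CPM in HC, and Acta2, Cnn1, Myh11, Myl9 and Tagln were below the filter in pericytes. Among the genes that silence receptors, Grk5 (455 ± 128 CPM) and Rgs3 (260 ± 111 CPM) led in pericytes, where 3 of 9 were tested and 0 called, with a median of 0.43.

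Plcb4 was at 705 ± 82.3 CPM in astrocytes and 1274 ± 53.5 CPM in Muller glia. It was also at 1079 ± 140 CPM in endothelial nuclei and 941 ± 74.9 CPM in HC. These types held 3 Ednrb UMIs each, which is 3.94 ± 6.30 CPM in endothelial nuclei and 0.631 ± 1.16 CPM in HC. In astrocytes and Muller glia Gnaq was at 442 ± 86.3 and 679 ± 89.2 CPM. Of the coupling list 7 genes were tested in astrocytes and 14 in Muller glia, with 0 called and medians of -0.02 and 0.01. Grk6, a kinase that turns receptors off, had a log2FC of -0.40 ± 0.17 in Muller glia with an unadjusted p of 0.0337 from edgeR (adjusted p = 0.963). Of the 9 desensitization genes 8 were tested in Muller glia, with 0 called and a median of 0.00. Of the ERK cascade all 5 genes were tested in Muller glia and in rods, with 0 called and medians of 0.04 and 0.06.

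The retinal damage list, which includes Edn2 itself, differed between the glia in level but not in any call. In astrocytes Gfap was at 792 ± 134 CPM and Serpina3n at 446 ± 63.9 CPM, compared with 52.6 ± 8.41 CPM for Gfap in Muller glia. Gfap is among the markers that named the astrocytes, so its order between the glia is no independent result. Osmr (190 ± 19.7 against 103 ± 41.8 CPM) and Lif (10.8 ± 5.37 against 0 CPM) were higher in Muller glia. The other genes of the list had higher means in astrocytes. The list's median log2FC was 0.19 in Muller glia (8 tested, 7 positive), 0.11 in rods (8 tested, 6 positive) and -0.06 in astrocytes (6 tested, 6 negative), beside medians of 0.00 over all genes in each, and 0 genes were called. In rods Fgf2 had a log2FC of 0.32 ± 0.15 and the calcium channel gene Itpr1 0.34 ± 0.15, with unadjusted p-values of 0.0449 and 0.0365 from edgeR and adjusted p-values of 0.999 for both. Of the genes for processing and breakdown, Ece2, a second converting enzyme, was highest in RGC (89.7 ± 7.86 CPM) and HC (74.8 ± 16.2 CPM), and Mme, which degrades endothelins, was at most 5.39 ± 2.16 CPM, in RGC. Kel and Cma1 were below 1 CPM in every type. Of this list 1 or 2 genes were tested in rods, BC, AC, HC and RGC, with 0 called. The contractile list had 1 gene tested in pericytes, Mylk, with a log2FC of 0.06 and no call.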

How the data were processed

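Retinal nuclei from 6 libraries were profiled with the 10x 3′ assay. The deposited values are whole UMI counts per gene for every barcode that the authors' pipeline called, without normalization; the labels name Cell Ranger 9.0.1 and Seurat 5.2.1, the file headers Cell Ranger 8.0.1, and the genome build is not given in the sources used here. For their own analysis, the authors removed doublets with DoubletFinder, integrated with Harmony, annotated nuclei with a retina atlas and tested sums per sample with DESeq2.

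Here, 56205 of 56634 barcodes passed limits of over 500 UMIs, 200 or more genes and less than 5% of counts from mitochondria, and 4012 doublets were removed by Scrublet score (scanpy 1.11.5, expected rate 8% lowered by the homotypic share). Nuclei were clustered on 2000 variable genes, 25 principal components and 20 neighbours with the Louvain method (igraph 0.11.9, resolution 0.25, seed 20), without integration. A cluster was named where at least 3 markers of a class were in 10% of its nuclei and its mean marker score led. Nuclei over 2 median absolute deviations from a type's median log2 count were left out of the sums. Counts were tested with edgeR 4.0.16 in R 4.3.3 (quasi-likelihood, TMM, filterByExpr at 10 counts), with Benjamini-Hochberg adjustment per type and calls at 0.05. On simulated data with 200 genes changed by a log2 of 1.5, edgeR recovered 198 in the rod comparison among 13252 genes. In pericytes it recovered 62 of 89 among 897 genes. All genes of a type were simulated with a common dispersion, and the change of 1.5 is larger than the highest endothelin estimate (0.76). The simulation therefore gives no power for changes of the size estimated here.

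The members and lists were chosen with earlier results of these data known. Named were the 6 genes in every type, the 3 genes most like each member with at least 100 UMIs (Pearson correlation over the types, genes of at least 10 CPM in a type), of which 1 is not reported here, at most 4 genes a list by level, and the markers. The genes named in rods with Edn2, the genes that lead a cluster, and the list genes with an unadjusted p under 0.05 were named after their values were seen. Alternatives were DESeq2 1.42.0 and its size factors, no filter or 30 counts, all nuclei of a type, no doublet removal, under 1% mitochondrial counts, a resolution of 0.5 and each library left out. Fits of single clusters and Muller glia with the Fbln1-high cluster were added after the data were seen.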

Additional observations from a re-analysis of the deposited data

Results flagged for a closer look

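Ednrb differed in direction between a glial and a photoreceptor type: all 3 IL-27 libraries lay above all 3 saline libraries in Muller glia and below them in rods. The log2 ratio of the Muller level to the rod level, on log2(CPM + 1), was 0.56 ± 0.30 after saline and 1.29 ± 0.23 after IL-27 (SD over 3 libraries). The difference was 0.727. It was not tested, because the types were chosen for their opposite order, which fixes that the ratios do not overlap. Within subclusters of the Muller glia, whose make-up differed between libraries, the groups overlapped. Neither type was called by itself.

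Ece1 was higher in all IL-27 libraries in endothelial nuclei and lower in all of them in the Fbln1-high nuclei. The log2 ratio between these types was 2.22 ± 0.84 after saline and 6.49 ± 2.17 after IL-27, a difference of 4.26 that was not tested for the same reason. The Fbln1-high values of the IL-27 libraries rest on 12, 3 and 93 nuclei that held 0, 0 and 5 Ece1 UMIs, so the size of the IL-27 ratio is set largely by the pseudocount of 1 CPM and is no measured ratio. Groups of 3 libraries are too small for a test of single outlying libraries.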

How the results depend on the processing

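No paired analysis was possible because the saline (1, 2 and 6) and IL-27 (4, 5 and 10) libraries share no replicate number. Of 239 values of 20 log2FC results under the alternatives, 221 kept their direction, 18 in 8 results reversed, and 0 became significant, the lowest adjusted p being 0.560 (edgeR, Ednrb with the Fbln1-high cluster added to Muller glia, log2FC 0.48). All 70 alternative values of 7 levels moved by less than the SD over the 6 libraries. For values with 1 library left out this was fixed in advance, since dropping 1 of 6 cannot move a mean that far. Reversed values were as follows, and the cause was not tested. Edn2 in cones was at -0.29 when all cones were summed, Edn1 in endothelial nuclei at -0.21 with mitochondrial counts under 1%, and Ece1 in all nuclei at 0.0012 with the filter at 30 counts and 0.010 with mitochondrial counts under 1%. Leaving out each library in turn gave log2FC from -0.11 to 0.15 for Edn2 in rods, where the negative end came without IL-27 replicate 5. It gave -0.0031 to 0.78 for Edn2 in cones (lowest without IL-27 replicate 10) and -0.050 to 0.30 for Edn1 in AC (lowest without IL-27 replicate 10). In the amacrine cluster the ranges were -0.22 to 0.25 for Edn1 and -0.072 to 0.13 for Ednrb, and in all nuclei -0.12 to 0.013 for Ednrb and -0.059 to 0.060 for Ece1. Without the filter on low counts, 1 gene of the 6 lists was called, Socs3 in BC (log2FC 1.13 ± 0.29, adjusted p = 0.0494 with edgeR). Its levels were 1.39, 3.06 and 1.97 CPM for saline and 1.59, 5.04 and 7.11 CPM for IL-27, with overlap. The share of all genes called in BC without the filter is not given here. The 7 shares of nuclei with a UMI fell with thinning to 1000 UMIs, as printed beside each. Depth limits Edn3 (19 UMIs) and the vascular types (12 to 48 nuclei per library).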
